A study of Mus musculus with 4 samples.

Results

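The complement genes described here are C1qa, C1qb, C1qc, C2, C3, C4b, Cfb, C3ar1 and C5ar1, 9 of the 23284 genes in the deposited tables, and each was found by its symbol in both of them. They were measured by RNA sequencing of whole C57BL/6 mouse lung in 4 groups of 1 library each. The first pair was Il22 knockout (IL22-/-) mice and wild-type mice, all given house dust mite (HDM) to sensitize and then challenge them, a mouse model of allergic asthma, with lungs taken 48 h after the last dose. The other pair was wild-type mice given recombinant IL-22, or phosphate-buffered saline (PBS), into the trachea, with lungs taken 24 h later and no allergen. The labels do not give the age of the mice, how the Il22 allele was made, or how many mice went into a library. With 1 library a group, no difference below has a replicate check and no test was possible. Whole lung mixes many cell types, so fewer cells of a type and less RNA per cell cannot be told apart.

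Complement is a cascade of plasma and tissue proteins that marks targets for clearance and recruits leukocytes. The classical pathway starts when C1q, a bundle of A, B and C chains made mainly by macrophages, binds a surface and switches on the proteases C1r and C1s, which cut C4 and C2 to form a C3 convertase. Factor B builds the convertase of the alternative pathway, and C3, the point where the pathways meet, is cut into C3b and the anaphylatoxin C3a, as C5 is cut later into C5b and C5a. C3a and C5a act through the receptors C3ar1 and C5ar1 on myeloid and other cells. In lung, C3 and factor B are also made by epithelium, and both are known acute phase genes. IL-22 is a cytokine of lymphocytes that acts on epithelium rather than on leukocytes, since its receptor is largely missing from blood-derived cells.

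The values were read as FPKM, fragment counts scaled to transcript length and sequencing depth, so levels of different genes can be set side by side. The column headers name no unit, and FPKM was taken from the whole-read steps of low values and from the tool named by the submitters. Differences are those of log2(FPKM + 1), which understates the change of low genes, and a gene was called higher or lower where that difference reached 1 in either direction and the pair averaged at least 1 FPKM. All 9 genes passed that filter in both pairs. Depths estimated from the whole-read steps of low values were 27201000 reads for the knockout HDM library, 24911000 for the wild-type HDM library, 28746000 for the IL-22 library and 19935000 for the PBS library. Il22 itself was listed at 0 in the knockout HDM library, against 0.362 FPKM (8 reads) in the wild-type HDM library, and was also listed at 0 with IL-22 and with PBS. A fold of estimated reads is given with an exact binomial 95% interval, which covers counting error only and says nothing of spread between animals.

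The C1q genes lie side by side on the minus strand of chromosome 4 (mm10), with C1qb at 136880129 to 136886187, C1qc at 136889804 to 136893065 and C1qa at 136895917 to 136898803, each with 3 exons, in a span of 18675 bases. C4b (34728380 to 34743882), Cfb (34856374 to 34862518) and C2 (34862604 to 34898265) lie on the minus strand of chromosome 17 in the class III region of the major histocompatibility complex, with 85 bases between Cfb and C2. C3 (57203970 to 57228136, 41 exons) is elsewhere on chromosome 17, C3ar1 is on chromosome 6 at 122847138 to 122856161 and C5ar1 on chromosome 7 at 16246743 to 16259540. All 9 are annotated as protein coding.

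Promoters of 5 of the 9 genes were found in the RefSeq table of build GRCm38.p6, the assembly called mm10, and are shown because they belong to 2 C1q genes with like differences, to C3, called in 1 pair, and to both anaphylatoxin receptors, whose differences were unlike. Each runs from 250 bases before to 50 after the annotated start, on the minus strand. Capitals mark matches to any of 5 elements searched on both strands.
C1qb (chr4:136886151-136886450): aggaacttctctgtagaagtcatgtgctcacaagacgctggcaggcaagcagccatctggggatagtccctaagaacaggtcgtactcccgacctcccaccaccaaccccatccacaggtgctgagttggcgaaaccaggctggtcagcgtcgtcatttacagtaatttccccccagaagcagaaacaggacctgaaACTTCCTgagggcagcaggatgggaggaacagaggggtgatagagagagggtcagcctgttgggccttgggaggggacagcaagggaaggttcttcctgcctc
C1qc (chr4:136892865-136893164): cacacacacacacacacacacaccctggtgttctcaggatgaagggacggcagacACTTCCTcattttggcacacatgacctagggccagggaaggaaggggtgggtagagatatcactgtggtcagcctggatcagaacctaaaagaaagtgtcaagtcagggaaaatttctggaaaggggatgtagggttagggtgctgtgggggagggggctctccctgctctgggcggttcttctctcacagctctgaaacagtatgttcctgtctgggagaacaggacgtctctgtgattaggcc
C3 (chr17:57228087-57228386): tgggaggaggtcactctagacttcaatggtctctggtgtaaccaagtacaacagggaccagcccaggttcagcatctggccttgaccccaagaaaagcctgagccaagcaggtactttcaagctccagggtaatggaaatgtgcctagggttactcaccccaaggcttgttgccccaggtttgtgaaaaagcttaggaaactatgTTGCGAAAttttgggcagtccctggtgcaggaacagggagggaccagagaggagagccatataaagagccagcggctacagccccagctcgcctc
C3ar1 (chr6:122856108-122856407): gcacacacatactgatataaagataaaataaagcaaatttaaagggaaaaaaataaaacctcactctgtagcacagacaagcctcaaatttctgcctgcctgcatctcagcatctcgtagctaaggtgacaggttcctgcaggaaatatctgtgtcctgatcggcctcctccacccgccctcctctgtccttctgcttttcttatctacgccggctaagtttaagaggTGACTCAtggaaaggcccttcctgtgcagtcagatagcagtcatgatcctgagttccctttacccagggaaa
C5ar1 (chr7:16259289-16259588): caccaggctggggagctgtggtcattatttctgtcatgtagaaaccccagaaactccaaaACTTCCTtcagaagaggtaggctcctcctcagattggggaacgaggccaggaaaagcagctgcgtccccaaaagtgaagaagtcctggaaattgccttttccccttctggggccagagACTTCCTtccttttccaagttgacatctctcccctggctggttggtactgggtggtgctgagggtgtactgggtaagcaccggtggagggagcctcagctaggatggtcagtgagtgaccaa

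The element AGGAAGT, a form of the site of PU.1, a transcription factor of myeloid cells, stood on the reverse strand as ACTTCCT in C1qb at 53 bases before the start, in C1qc at 195 and in C5ar1 at 190 and at 72 bases before it. Of all 32851 promoters of that length in the table, 9.35% hold it. C3 had 1 match to TTGCNNAA, a form of the site of the C/EBP factors of the acute phase response, at 45 bases before the start, and 10.8% of promoters hold it. C3ar1 had 1 match to the AP-1 element TGANTCA at 22 bases before the start, which 7.81% of promoters hold. The STAT element TTCNNNGAA, held by 8.30% of promoters, and an NF-kB element, held by 1.47%, had no match in these windows. No element overlapped another, and the matches describe letters only.

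After HDM, 5 of the 9 complement genes were lower in the Il22 knockout library than in the wild-type library and none was higher. Of all 13285 measured genes, 2.42% were called lower and 0.549% higher, 2.97% in all. The 5 were the C1q chains, factor B and C3, with C3ar1 just short of the size rule. C2, C4b and C5ar1 were not called. The median difference over the 9 was -1.19, beside 0.03 over all measured genes. In lung given IL-22 without allergen, 2 of the 9, C1qb and C3ar1, were higher than in the PBS library and none was lower, beside 0.597% higher and 0.189% lower, 0.786% in all, among 13233 measured genes. There C1qa and C1qc were just short of the rule and the other 5 lay within 0.31 of 0. The median over the 9 was 0.14, beside 0.04 over all genes.

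**Figure D1:**
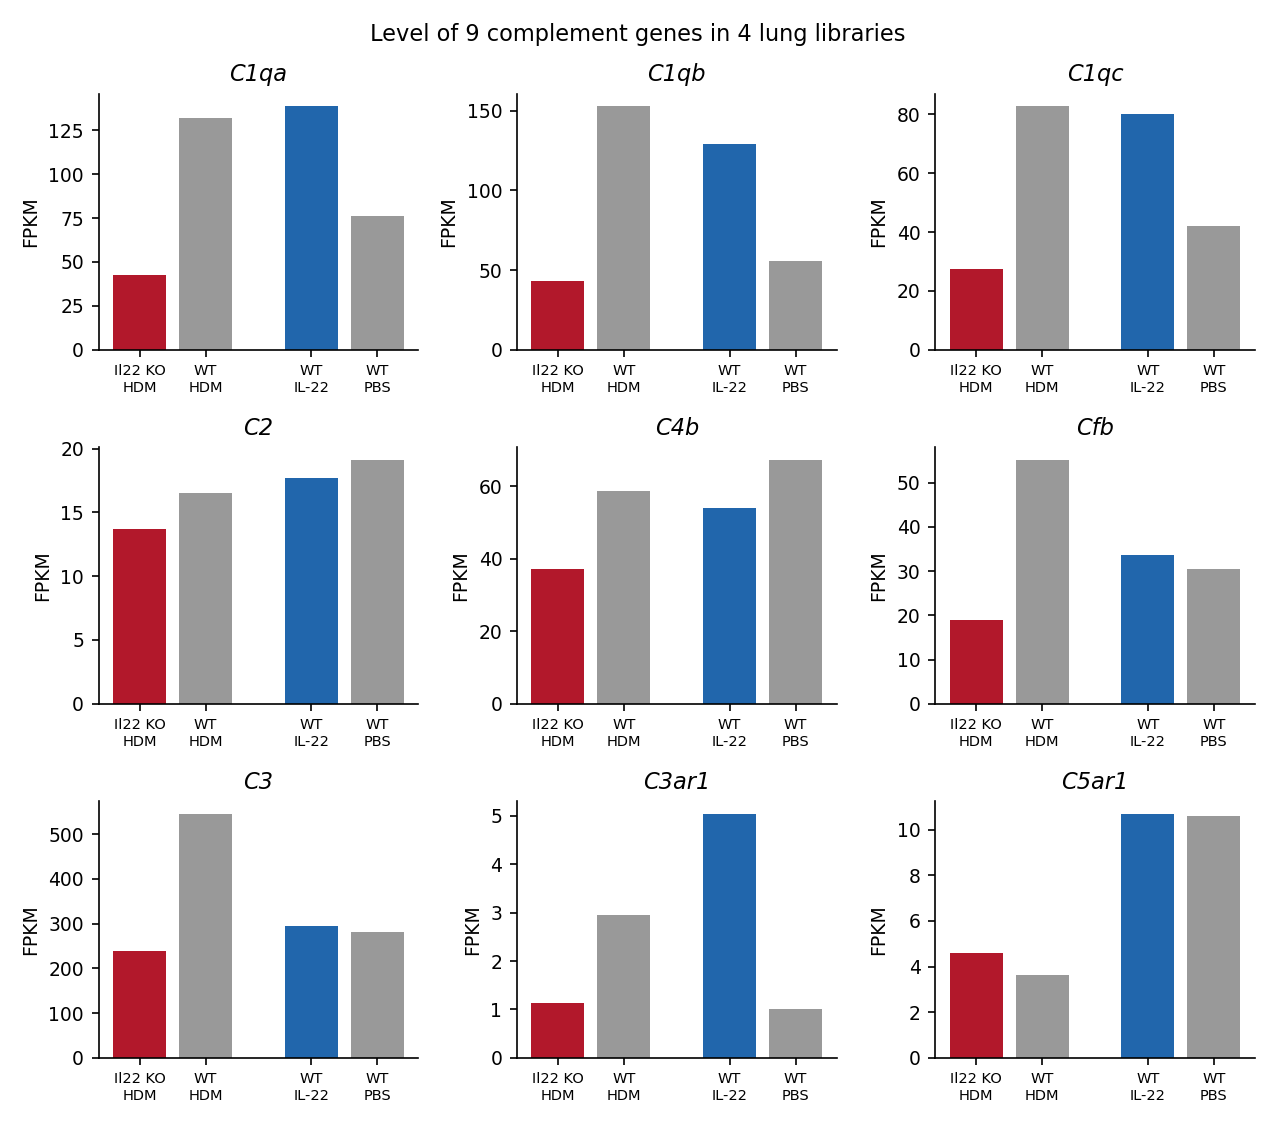
FPKM (linear axis from 0) of each of the 9 genes in the 4 libraries, 1 bar per library with no error bar because each group is 1 library. The C1q genes show a low bar for the Il22 knockout after HDM (27.5 to 43.2 FPKM). C5ar1 is listed higher in the IL-22 and PBS libraries (10.7 and 10.6 FPKM) than in the HDM pair. That pair is from the other table, which may have been normalized separately.

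The C1q chains, which recognise bound antibody and dying cells, had the 3 most negative differences of the 9 in the HDM pair. C1qa was at 42.5 FPKM in the knockout HDM library and 132 FPKM in the wild-type HDM library, and at 139 FPKM with IL-22 and 76.3 FPKM with PBS. C1qb was at 43.2 FPKM in the knockout HDM library and 153 FPKM in the wild-type HDM library, and at 129 FPKM with IL-22 and 56.0 FPKM with PBS. C1qc was at 27.5 FPKM in the knockout HDM library and 82.9 FPKM in the wild-type HDM library, and at 80.1 FPKM with IL-22 and 42.1 FPKM with PBS. In each pair all 3 chains differed the same way, lower in the knockout and higher with IL-22.

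In the HDM pair the differences were -1.62 for C1qa, -1.80 for C1qb and -1.56 for C1qc. In estimated reads C1qb was 3.55-fold lower in the knockout library (interval 3.31 to 3.81), and only 82 of 13285 measured genes had a more negative difference. C1qa was 3.11-fold lower (2.89 to 3.35) and C1qc 3.01-fold lower (2.77 to 3.28). In the other pair C1qb was 2.31-fold higher with IL-22 (2.15 to 2.48), a difference of 1.19, while C1qa at 0.86 and C1qc at 0.91 were not called. In reads these were 1.82-fold (1.71 to 1.95) and 1.91-fold (1.76 to 2.06). The proportion of C1qc to C1qa varied less than that of C1qb to C1qa. C1qc stood at 0.649 of the C1qa level in the knockout HDM library and 0.628 in the wild-type HDM library, and at 0.577 with IL-22 and 0.551 with PBS. For C1qb this ratio was 1.02 in the knockout HDM library and 1.16 in the wild-type HDM library, and 0.931 with IL-22 and 0.734 with PBS. None of the 50-base words of the C1q transcripts occurs in transcripts of another gene.

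The proteases that C1q activates did not follow it past the size rule. C1ra was at 31.7 FPKM in the knockout HDM library and 47.4 FPKM in the wild-type HDM library, a difference of -0.56, and C1s at 50.3 and 64.1 FPKM, a difference of -0.34. C1ra was at 43.5 FPKM with IL-22 and 49.1 FPKM with PBS, a difference of -0.17, and that of C1s was -0.13, so both lay slightly below PBS where C1q lay above it. C1qa stood at 0.844 of the C1s level in the knockout HDM library and 2.06 times it in the wild-type HDM library, and at 2.78 times with IL-22 and 1.39 times with PBS. C1ra shares 50.8% of its 50-base words with other genes, chiefly its copy C1rb, so how reads were split between these copies is uncertain. Serping1, the C1 inhibitor that shuts off C1r and C1s, was at 256 and 238 FPKM in the knockout and wild-type HDM libraries and at 280 and 306 FPKM with IL-22 and PBS, differences of 0.10 and -0.13.

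Markers of monocytes and interstitial macrophages, the main source of C1q, moved in part with it. Of 16 markers 6 were lower and none higher in the knockout HDM library (median -0.66), and 3 were higher and none lower with IL-22 (median 0.08). Their summed level was 8381 FPKM in the knockout HDM library and 7209 FPKM in the wild-type HDM library, and 7033 with IL-22 and 7245 with PBS, most of it Lyz2, and no marker was at 0 in any library. The geometric mean of the 16, which weights them alike, was 13.0 and 22.6 FPKM in the knockout and wild-type HDM libraries and 21.8 and 16.1 FPKM with IL-22 and PBS. That of the C1q chains was 36.9 and 119 FPKM, and 113 and 56.4 FPKM. The C1q mean was therefore 2.85 times the marker mean in the knockout HDM library and 5.26 times in the wild-type HDM library, and 5.17 times with IL-22 and 3.51 times with PBS. The part of macrophage number in the C1q differences was not tested.

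The markers did not move as a block. In the HDM pair 13 of the 16 lay below 0 and 3 above it, which were Mertk (0.42), Lyz2 (0.26) and Apoe (0.04). Ms4a7, a membrane protein of tissue macrophages, had differences of -1.55 and 1.12 in the HDM and IL-22 pairs. Aif1, the actin-binding protein Iba1, had -1.41 and 1.66, and Emr1, the F4/80 antigen, had -0.94 and 1.97. Csf1r, the receptor for macrophage colony-stimulating factor, had -0.28 and -0.14, and Cd68, a lysosomal protein, had -1.31 and -0.22. On log2(FPKM + 1) all 3 C1q chains lay below the 16 markers in the HDM pair, with C1qc at -1.557 and Ms4a7, the lowest marker, at -1.546. That order did not hold in estimated reads, where the pseudocount plays no part. There the marker Fcgr1 was 4.22-fold lower in the knockout and Ms4a7 3.8-fold lower, against 3.55-fold for C1qb. The counting intervals of both markers overlapped that of C1qb. Aif1, the next marker, was 2.94-fold lower, less than each C1q chain, though its counting interval (2.34 to 3.72) overlapped those of all 3 chains.

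**Figure D2:**
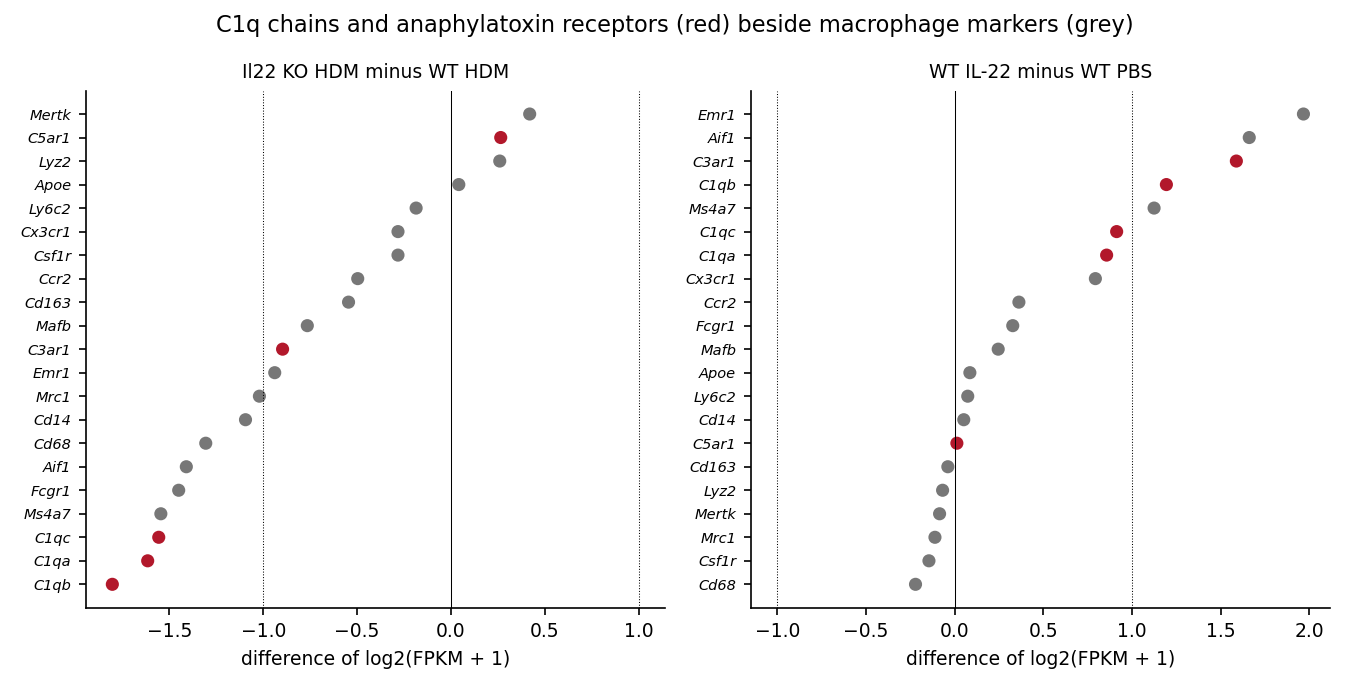
Difference of log2(FPKM + 1) in each pair for C1q chains and anaphylatoxin receptors (red) and 16 monocyte and interstitial macrophage markers (grey), 1 point a gene, with dotted lines at the size rule of 1. C1q lies at the lower end in the HDM pair (-1.80 to -1.56) and at 0.86 to 1.19 in the IL-22 pair, where Aif1 (1.66) and Emr1 (1.97) lie above all 3 chains, while Csf1r lies at -0.28 and -0.14 and Lyz2 at 0.26 and -0.07.

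C3 was the most abundant of the 9 in every library. It was at 239 FPKM in the knockout HDM library and 546 FPKM in the wild-type HDM library, and at 296 FPKM with IL-22 and 281 FPKM with PBS. The wild-type HDM library held the highest of the 4 listed values, though the tables of the pairs may have been normalized separately. In reads C3 was 2.28-fold lower in the knockout (2.25 to 2.31), a difference of -1.19, and scaling the pair by reference genes made it -0.90, under the size rule. With IL-22 the difference was 0.07.

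Factor B, the protease of the alternative convertase, had the same form. Cfb was at 19.0 FPKM in the knockout HDM library and 55.2 FPKM in the wild-type HDM library, and at 33.6 FPKM with IL-22 and 30.5 FPKM with PBS. It was 2.91-fold lower in the knockout in reads (2.73 to 3.10), a difference of -1.49, and its difference with IL-22 was 0.14. Its counterpart in the classical convertase, C2, was at 13.7 and 16.5 FPKM in the knockout and wild-type HDM libraries and at 17.7 and 19.1 FPKM with IL-22 and PBS. C2 had differences of -0.25 and -0.10, and the first became 0.01 under scaling by reference genes. The ratio of Cfb to C2, which lie 85 bases apart, was 1.39 in the knockout HDM library and 3.35 in the wild-type HDM library, against 1.90 with IL-22 and 1.59 with PBS. A readthrough gene, Gm20547, shares 81.8% of the 50-base words of Cfb and 58.0% of those of C2 and has no row in the tables, so how its reads were counted is uncertain. Zbtb12 lies within C2 on the opposite strand, and without strand in the counting its reads and those of C2 cannot be told apart.

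C4b, whose product forms the classical convertase with C2, was at 37.3 FPKM in the knockout HDM library and 58.7 FPKM in the wild-type HDM library, and at 54.1 FPKM with IL-22 and 67.3 FPKM with PBS. Its differences of -0.64 and -0.31 were not called. C4b was the member with the most negative value in the IL-22 pair. Its near copy C4a holds 35.2% of its 50-base words, so their reads can be shared, and the ratio of C4b to C4a stayed between 3.27 and 3.44 in the 4 libraries. Among 34 other measured genes within 250 kb of the C4b to C2 stretch, 3 were lower in the HDM pair and none in the other. These 3 were the heat shock genes Hspa1a (-2.27), Hspa1b (-2.20) and Hspa1l (-1.14). Around C3, Tnfsf9, a ligand of the tumour necrosis factor family, was lower (-1.22) and the other 12 of 13 neighbours were not called.

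C3ar1, the receptor for C3a, was the least abundant of the 9 and had the largest relative difference in the IL-22 pair. It was at 5.05 FPKM with IL-22 and 1.01 FPKM with PBS, about 596 and 83 reads, a difference of 1.59. In reads this is 4.98-fold (3.95 to 6.34), and 30 of 13233 measured genes had a larger positive difference. In the HDM pair it was at 1.12 FPKM in the knockout and 2.95 FPKM in wild type, about 125 and 302 reads, which is 2.64-fold lower (2.13 to 3.28). The difference of -0.90 was not called with a pseudocount of 1, and became -1.32 with a pseudocount of 0.1. C3ar1 thus had the direction of C1q in both pairs.

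C5ar1, the receptor for C5a, did not share that pattern. It was at 4.59 FPKM in the knockout HDM library and 3.65 FPKM in the wild-type HDM library, about 288 and 210 reads, a difference of 0.27. It was at 10.7 FPKM with IL-22 and 10.6 FPKM with PBS, a difference of 0.01 whose sign depended on the scaling. It was the only one of the 9 that lay above 0 in the HDM pair. The ratio of C3ar1 to C5ar1 was 0.245 in the knockout HDM library and 0.810 in the wild-type HDM library, and 0.472 with IL-22 and 0.0954 with PBS. Neutrophils carry much C5ar1, and of 7 measured neutrophil markers 2 were higher (S100a8 and S100a9) and 1 lower (Retnlg) in the knockout HDM library, with a summed level of 220 and 171 FPKM over the list and Elane at 0 in both. With IL-22 none of 10 was called, and the sums were 320 and 353 FPKM. The part of neutrophils in the C5ar1 levels was not tested. Its ligand's source Hc (C5) was at 85.2 and 133 FPKM in the knockout and wild-type HDM libraries, a difference of -0.64, and at 52.2 and 59.5 FPKM with IL-22 and PBS.

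**Figure D3:**
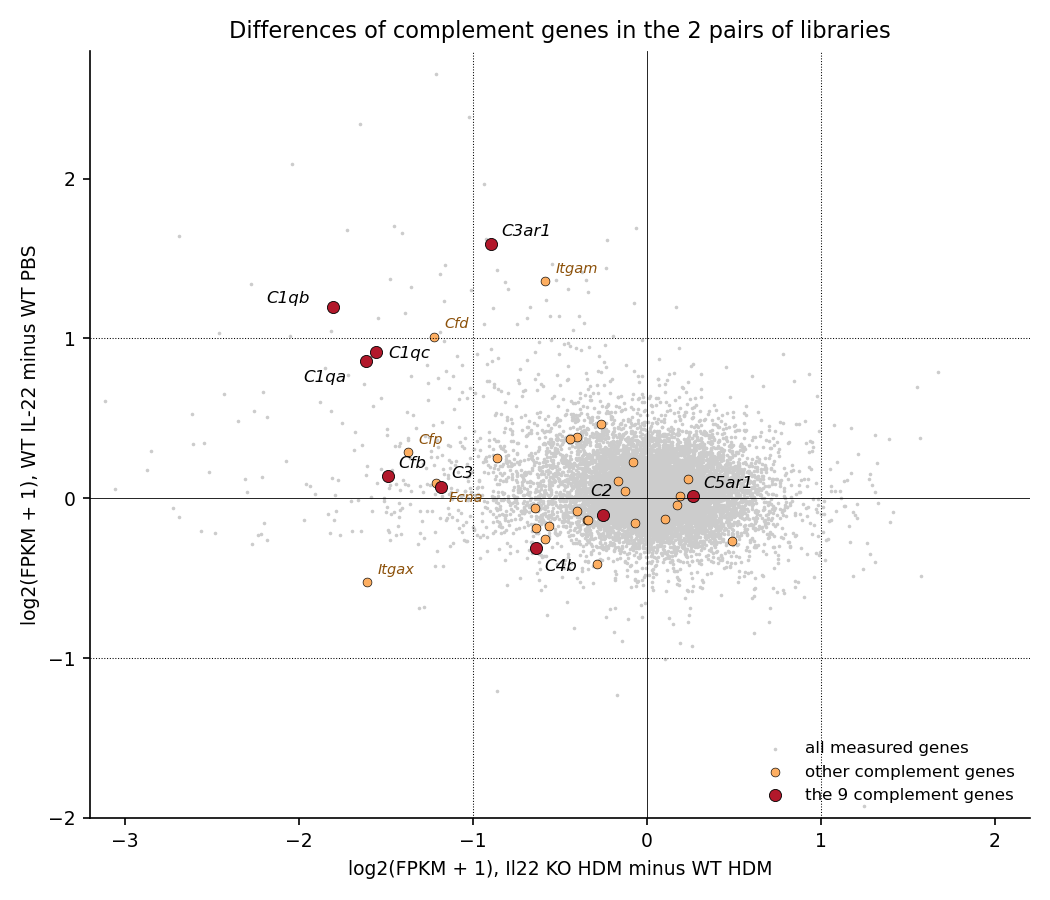
Each point is a gene measured in both pairs (a few lie beyond the axes), placed by its difference of log2(FPKM + 1) in the HDM pair (x) and in the IL-22 pair (y), with the 9 genes in red, other complement genes in orange and dotted lines at the size rule of 1. C1q and C3ar1 lie to the upper left, and C3 and Cfb to the left at y of 0.07 and 0.14. C2 and C5ar1 lie in the dense centre, and C4b to the lower left of it at -0.64 and -0.31.

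The 9 genes thus took 3 positions when both pairs were read together, and the pairs share no library. C1q and C3ar1 were lower in the knockout HDM library and higher with IL-22 (C3ar1 and 2 of the C1q chains by the size rule in 1 pair only). C3 and Cfb were lower in the knockout only by that rule, and C2, C4b and C5ar1 in neither. Of the 9, C1qb alone was called in both pairs, and 29 of 12902 genes measured in both, 0.225%, were called lower in the first and higher in the second. Those 29 were 11.6% of the 250 lower genes and 44.6% of the 65 higher genes. They included Ms4a7, Aif1, Cd72, Cxcl13, Retnla, Reg3g and several small RNAs. Also among them were the fat cell markers Cfd, Adipoq and Fabp4, the heart muscle marker Nppa and the smooth muscle marker Actg2.

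Likeness was measured as the distance between the pairs of differences, over 7914 named genes averaging at least 5 FPKM in each table. Around the C1q mean only 2 genes lay within 0.3, Clec4a3, a C-type lectin receptor of myeloid cells, at 0.26 and Hamp, the iron hormone hepcidin, at 0.27, followed by Ly86, the MD-1 protein of B cells and macrophages, at 0.38, Myl7, an atrial myosin light chain, at 0.42 and Fabp4 at 0.42. Around C3ar1 there were also 2 within 0.3, Clec4a1 at 0.04 and Slamf9 at 0.16, then Actg2, Emr1 and Basp1. For C3 the nearest 5 included Ckmt1, Tnfsf9, Clec4n and the endotoxin co-receptor Cd14, all within 0.1. For Cfb they were Myh6, Tgtp1, Ctss, Pigr, the transporter of IgA across epithelium, and Mnda. C2 and C5ar1 had 347 and 605 genes within 0.1, so their nearest genes are not informative, and C4b had 10, led by Pmf1, Plaur and Hmox1.

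Levels in the HDM table and in the other table may have been normalized separately, and the lungs were taken at different times, so these are given side by side only. In the knockout HDM library C3ar1 was listed just above its PBS level, at 1.12 and 1.01 FPKM, and the other members below theirs. In the wild-type HDM library the C1q chains, C3, Cfb and C3ar1 were listed above their PBS level, and C2, C4b and C5ar1 below it. How many of all genes were listed above or below PBS was not counted. These positions therefore cannot be read as particular to the members.

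The rest of the system was described from 47 other complement genes, of which 28 were measured in each pair. In the HDM pair the knockout library had 5 of them lower and none higher, beside 2.42% lower and 0.549% higher among all measured genes. The median was -0.40, and 23 of the 28 lay below 0, as did 6131 of all 13285 measured genes. Properdin (Cfp), which steadies the alternative convertase, was at 9.29 FPKM in the knockout HDM library and 25.7 FPKM in the wild-type HDM library, a difference of -1.38. Factor D (Cfd), the protease that cuts factor B and a product of fat cells, was at 22.5 and 54.1 FPKM, a difference of -1.23 that was under the rule when the pair was scaled by reference genes. Ficolin A (Fcna), a lectin that starts the lectin pathway, was at 0.361 and 2.15 FPKM (about 12 and 63 reads), a difference of -1.21. Factor I (Cfi), the protease that inactivates C3b, was at 0.645 and 2.58 FPKM, a difference of -1.12. The fifth was Itgax, the alpha chain of complement receptor 4, at 7.42 and 24.7 FPKM. Itgax is also on the list of alveolar macrophage markers.

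With IL-22, 2 of 28 were higher and none lower, with a median of -0.05. Among all measured genes 0.597% were higher and 0.189% lower, with a median of 0.04. Itgam, the alpha chain of complement receptor 3, which binds a fragment of C3b, was at 12.7 FPKM with IL-22 and 4.32 FPKM with PBS, a difference of 1.36. Its partner chain Itgb2 was at 41.8 and 34.9 FPKM, and Itgax was at 9.18 and 13.6 FPKM, a difference of -0.52 in the other direction. Cfd was at 239 and 118 FPKM, a difference of 1.01 that was under the rule when the pair was scaled by its median ratio. Cfd is also on the list of fat cell markers. With Cfd included, 5 of 7 measured fat cell markers were higher with IL-22 (sums 487 and 219 FPKM). In the knockout HDM library 3 of 5 were lower (sums 59.9 and 142 FPKM, with Lep at 0 in both). Cfd is 1 of the called genes in each pair. It gave 239 and 118 FPKM of the first sums and 22.5 and 54.1 FPKM of the second. The part of fat in the Cfd values was not tested.

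Of the inhibitors of complement, factor I was called in the HDM pair, as given above. Cr1l (Crry), the membrane regulator of rodents, was at 49.2 and 53.7 FPKM in the knockout and wild-type HDM libraries, and at 48.8 and 47.2 FPKM with IL-22 and PBS. Cd55, which breaks up convertases, had differences of -0.40 and 0.39. C3 stood at 4.87 times the Cr1l level in the knockout HDM library and 10.2 times in the wild-type HDM library, and at 6.06 times with IL-22 and 5.96 times with PBS. Of 6 fluid-phase and 5 membrane regulators measured in the HDM pair, Cfi alone was called, and none of 5 and 4 was in the IL-22 pair. The terminal genes C6 and C7 were at 10.9 and 13.4 FPKM and at 39.7 and 50.5 FPKM in the knockout and wild-type HDM libraries, and C8a and C8b were listed at 0 in all 4.

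Of 12 alveolar macrophage markers 3 (Itgax, Chi3l3 and Fabp4) were lower in the knockout HDM library (median -0.46). Their sums were 759 and 3025 FPKM in the knockout and wild-type HDM libraries, most of that gap from Chi3l3 at 367 and 2438 FPKM. With IL-22 Fabp4 alone was called, higher, while the other 11 markers lay below 0 (median of the 12 -0.14). Fabp4, also among the 3 lower genes in the HDM pair, is on the list of fat cell markers too. Of 5 measured erythroid markers 4 were higher and none lower in the knockout HDM library (median 1.17, sums 12942 and 6024 FPKM), and with IL-22 none of 6 was called (sums 8406 and 9911 FPKM). Muscle markers lay on the same side of 0 as C1q in both pairs. All 8 heart muscle markers were lower in the knockout HDM library (sums 150 and 392 FPKM) and 1 of 8 was higher with IL-22 (sums 1120 and 765 FPKM), and of 8 smooth muscle markers 1 was lower in the knockout (sums 465 and 675 FPKM) and 3 were higher with IL-22 (sums 1054 and 534 FPKM). No muscle marker was at 0. Liver cell markers were at most 1.41 FPKM, with Ttr and Fgb listed at 0 in all 4 libraries. Alveolar type II cell markers had no called gene in either pair and medians of 0.08 and -0.04. What part tissue make-up had in the complement values was not tested.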

How the data were processed

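The labels give 4 lung RNA libraries, 1 per group, and groups were taken from the sample titles. The authors deposited a table for each pair, read here as FPKM although the headers name no unit. CASAVA 1.8.2, TopHat2, Cufflinks 2.2.1 and build mm10 are named per the submitters' processing notes, with settings not given in the sources used here. The 23746 rows of the tables were joined on symbol and accession, and rows of a symbol were added together. Differences were taken on log2(FPKM + 1) within a table only. Depth was read from low values (up to 8 reads), as the number of reads that made FPKM times transcript length less 200 bases whole. Of these values, 63.6 to 65.1% came out within 0.1 of a whole read, so reads are estimates. No p-value was computed. The steps were tested on simulated reads made with the same length rule, which cannot check the offset of 200 bases or the spread between animals. The members and all gene lists were chosen with earlier results of these data known. Named genes were all 9 members, list members (called ones, those nearest the rule or the highest), up to 4 of each other list by size, the 5 nearest genes by likeness, and Il22. Further list members are named as examples, chosen after their values were seen. Results of some genes are not reported here. Positions are from GENCODE M21 and promoters from RefSeq, both on GRCm38. The alternatives were another pseudocount, 3 scalings, 2 filters, 2 size rules, no small RNAs, and 1 row per symbol. Computation was in Python 3.11.15 with pandas 2.3.3 and numpy 2.4.6, intervals were from scipy 1.17.1, and plots from matplotlib 3.10.9.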

Additional observations from a re-analysis of the deposited data

How the results depend on the processing

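No paired analysis was possible because each group is 1 library with no replicate number. Apart from C2 in the HDM pair and C5ar1 in the IL-22 pair, no difference of the 9 genes changed sign under another pseudocount, scaling or row choice. In the HDM pair the members called numbered 5, and 6 with a pseudocount of 0.1 (C3ar1 added), 4 with scaling by reference genes (C3 lost), 7 at a size of 0.5 and 3 at a size of 1.5 (the C1q chains). Other complement genes called numbered 5 there, 4 with scaling by reference genes (Cfd lost), 3 at a mean FPKM of at least 5, 12 at a size of 0.5 and 1 at a size of 1.5. All genes called numbered 395, and 619 with a pseudocount of 0.1, 251 at a mean FPKM of at least 5, 1749 at a size of 0.5 and 151 at a size of 1.5. Scaling by reference genes moved the median of all genes to 0.27 and the split to 217 lower and 194 higher, beside 322 lower and 73 higher as deposited. The C1q chains and Cfb were called under it too, and C3 (-0.90) was not. In the IL-22 pair the members called numbered 2, and 3 with scaling to a common total (C1qc added), 1 at a mean FPKM of at least 5 (C1qb), 4 at a size of 0.5 and 1 at a size of 1.5 (C3ar1). Other complement genes called numbered 2, 3 at a size of 0.5, 1 with scaling by the median ratio and 0 at a size of 1.5. All genes called numbered 104, and 166 with a pseudocount of 0.1, 487 at a size of 0.5, 52 at a size of 1.5 and 66 without small RNAs. Scaling to a common total moved the median of all genes there to 0.13. Fewer genes pass stricter filters and sizes by construction, and the cause was otherwise not tested. Depth limits low genes, among them Fcna with 12 and 63 reads and Cfi with 33 and 121 reads in the knockout and wild-type HDM libraries.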

Other observations

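A list of 22 genes held relatives of C1q by protein domain, with C1qbp listed by name only. Of these 22, 16 were measured in each pair. Adipoq, the fat cell hormone adiponectin, was the only one called. Like C1qb, it was lower in the knockout HDM library (-1.16) and higher with IL-22 (1.46). It was at 1.53 FPKM in the knockout HDM library and 4.66 FPKM in the wild-type HDM library, and at 20.0 FPKM with IL-22 and 6.65 FPKM with PBS. The list medians were 0.14 in the HDM pair and 0.08 in the IL-22 pair. C1qtnf7 had the largest positive difference of the list in the HDM pair, 0.58, at 32.7 and 21.6 FPKM in the knockout and wild-type libraries.

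Genes that act with C1q in the clearance of dying cells were not called in either pair. Of these, 10 were measured in the HDM pair (median 0.15) and 11 in the IL-22 pair (median -0.08). Mertk, the receptor tyrosine kinase of macrophages, was at 12.1 and 8.80 FPKM in the knockout and wild-type HDM libraries, and Axl at 16.1 and 20.6 FPKM. Il6, an inducer of acute phase genes, was at 0.165 and 1.76 FPKM (about 4 and 41 reads) in the knockout and wild-type HDM libraries, a mean under the filter. It is 1 of 15 listed known regulators of complement genes. Of the 12 measured in the HDM pair, 1 was lower and none higher (median -0.37), beside 2.42% lower among all measured genes. In the IL-22 pair none of 13 was called (median 0.03).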
